A study of Rattus norvegicus with 20 samples.

Results

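The synaptic vesicle and SNARE genes were read in cortical neurons of rats aged 2 years that had been given a stroke. They were taken by name from the array: the synapsins Syn1 to Syn3, Sv2a to Sv2c, Syp, Synpr, Snap23, Snap25, Nsf, Napa, Gosr1, Gosr2, the transmitter transporters Slc17a6, Slc17a7 and Slc32a1, and every gene whose name begins with Syt, Stx, Stxbp, Vamp, Cplx, Rab3 or Syngr. These made 78 members on 96 probes, of 36459 gene names on 41012 probes. Napb was not found under that name, and the Rab3 prefix also took Rab31, Rab33b, Rab34, Rab37, Rab38 and Rab39a, which are not of the Rab3 family. Each gene was read from its brightest probe, and measured ratios played no part in the choice.

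Sprouting and non-sprouting neurons of the same animal were compared by laser capture microdissection, in which about 300 neurons of each type were cut from brain tissue. Cholera toxin B conjugates CTb-Alexa 488 and CTb-Alexa 647, tracers that neurons carry from their axon endings back to the cell body, had been injected at one site in the cortex beside the infarct. The second tracer came 21 days (5 animals) or 7 days (5 other animals) after the first, and the neurons were captured 7 days after the second. No uninjured animals entered the comparisons, all animals carried the stroke and both tracers, and the labels name neither the strain nor the sex. Captured RNA went through repeated T7 amplification and was hybridised on 2-colour arrays, on 1 array with sprouting RNA in Cy5 and on 1 array with the dyes exchanged. Both arrays of an animal hold the same RNA pair, so they were averaged to 1 log2 ratio per animal, positive where the signal was higher in sprouting neurons. Arrays give relative brightness, the number of animals limits the precision, and fewer cells of a type cannot be told apart from less RNA per cell.

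Release of transmitter depends on a cycle in which a vesicle is filled, docked, primed, fused and rebuilt. Fusion is driven by SNARE proteins: a vesicle SNARE of the Vamp family zips together with target SNAREs of the Stx and Snap families, under the control of Stxbp proteins, complexins and the calcium sensing synaptotagmins. Nsf and its adaptor Napa pull the spent complex apart, and related SNAREs serve the Golgi and endosomes, which supply membrane to growing axons.

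No member differed between sprouting and non-sprouting neurons in the test across all genes. At day 21 and at day 7 alike, 0 of 71 members tested had an adjusted p under 0.05 (limma, Benjamini-Hochberg over 30484 genes), where 0% of all genes passed at either day. For the difference between days, 0 members and 0% of all genes passed. For the mean of both days 0 members and 0.00328% of all genes, a single gene that is no member, passed. The smallest adjusted p of a member was 0.917 at day 21, 0.567 at day 7, 0.919 for the difference and 0.637 for the mean of both days. Values below are therefore given as levels and ratios, and p-values without the word adjusted are limma's before adjustment for the number of genes.

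Counts before adjustment lay near the background at day 21 and at day 7. At day 21, 2 of 71 members (2.82%) had p under 0.05, both higher in sprouting neurons, against 4.79% of all genes. At day 7, 5 members (7.04%) had p under 0.05, 2 higher and 3 lower, against 6.11% of all genes. The difference between days gave 2 members (2.82%) against 4.09% of all genes, and the mean of both days gave 5 members (7.04%) against 6.48%. A single sign in every animal was seen in 5 members (7.04%) at day 21, against 6.29% of all genes, and in 12 members (16.9%) at day 7, against 11.1%. Across all 10 animals 1 member kept a single sign (1.41%, against 0.486% of all genes). The ranges of the days did not overlap for 1 member (1.41%, against 0.955%).

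The list as a whole was centred near zero. Of 71 members 34 had a mean ratio above 0 and 37 below at day 21, with a median log2 ratio of -0.0054, against a median of -2.0e-05 over all genes. At day 7, 39 were above and 32 below, with a median of 0.0078, against -0.0024 over all genes. The typical size of a member's ratio, the median of its absolute log2 value, was 0.052 at day 21 and 0.060 at day 7, against 0.046 and 0.047 over all genes at the same days. Of the 78 members, 7 (Cplx4, Gosr1, Rab37, Rab39a, Stx11, Syt9 and Sytl4) were not tested, because in neither cell type did 3 or more animals of a day have both arrays well above background. On all 20 arrays, 25 members were well above background in both channels.

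**Figure D1:**
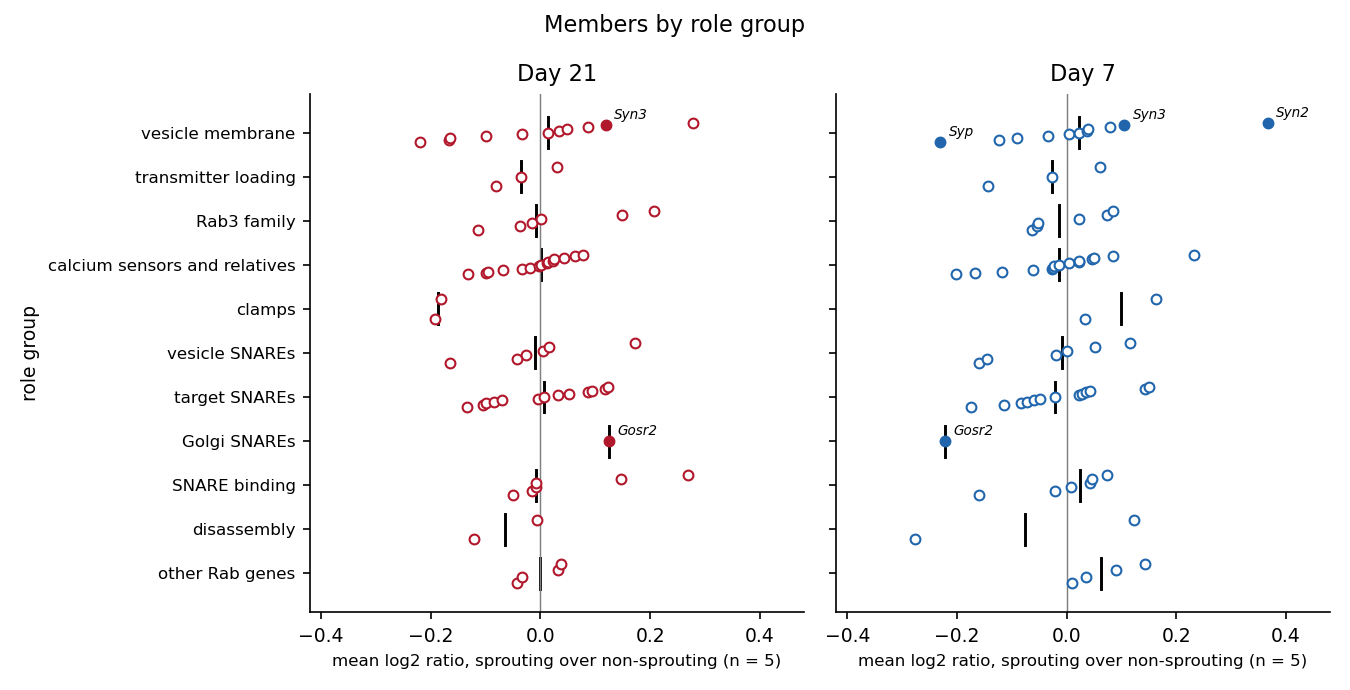
Mean log2 ratio of sprouting over non-sprouting neurons for 69 of the 71 members tested, in role groups, at day 21 (left) and day 7 (right), with 5 animals a day. Each circle is a gene, a filled and named circle has p under 0.05 before adjustment, and the bar is the median of the genes drawn in the role group; the points spread to both sides of 0 in most groups.

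The libraries differed in quality, which bears on single values below. Between 20.6% and 95.4% of gene probes were well above background per array and channel. The lowest value was the sprouting channel of the dye-swap array of day 21 animal 4, whose forward and dye-swap ratios correlated at 0.23 over the members and at 0.060 over all genes. Day 21 animal 5 had a ratio beyond 0.5 on the log2 scale, either way, in 15 of 71 members (21.1%, against 11.4% of all genes in that animal), with a correlation of 0.96 between its arrays over the members. All 8 pan-neuronal markers tested were above background in the sprouting channel on at least 19 arrays, and the oligodendrocyte marker Mbp was so on all 20. Scan batches, as the scan day in the file headers gives them, held 1, 2, 3, 2 and 2 animals, and only the third held both days.

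**Figure D2:**
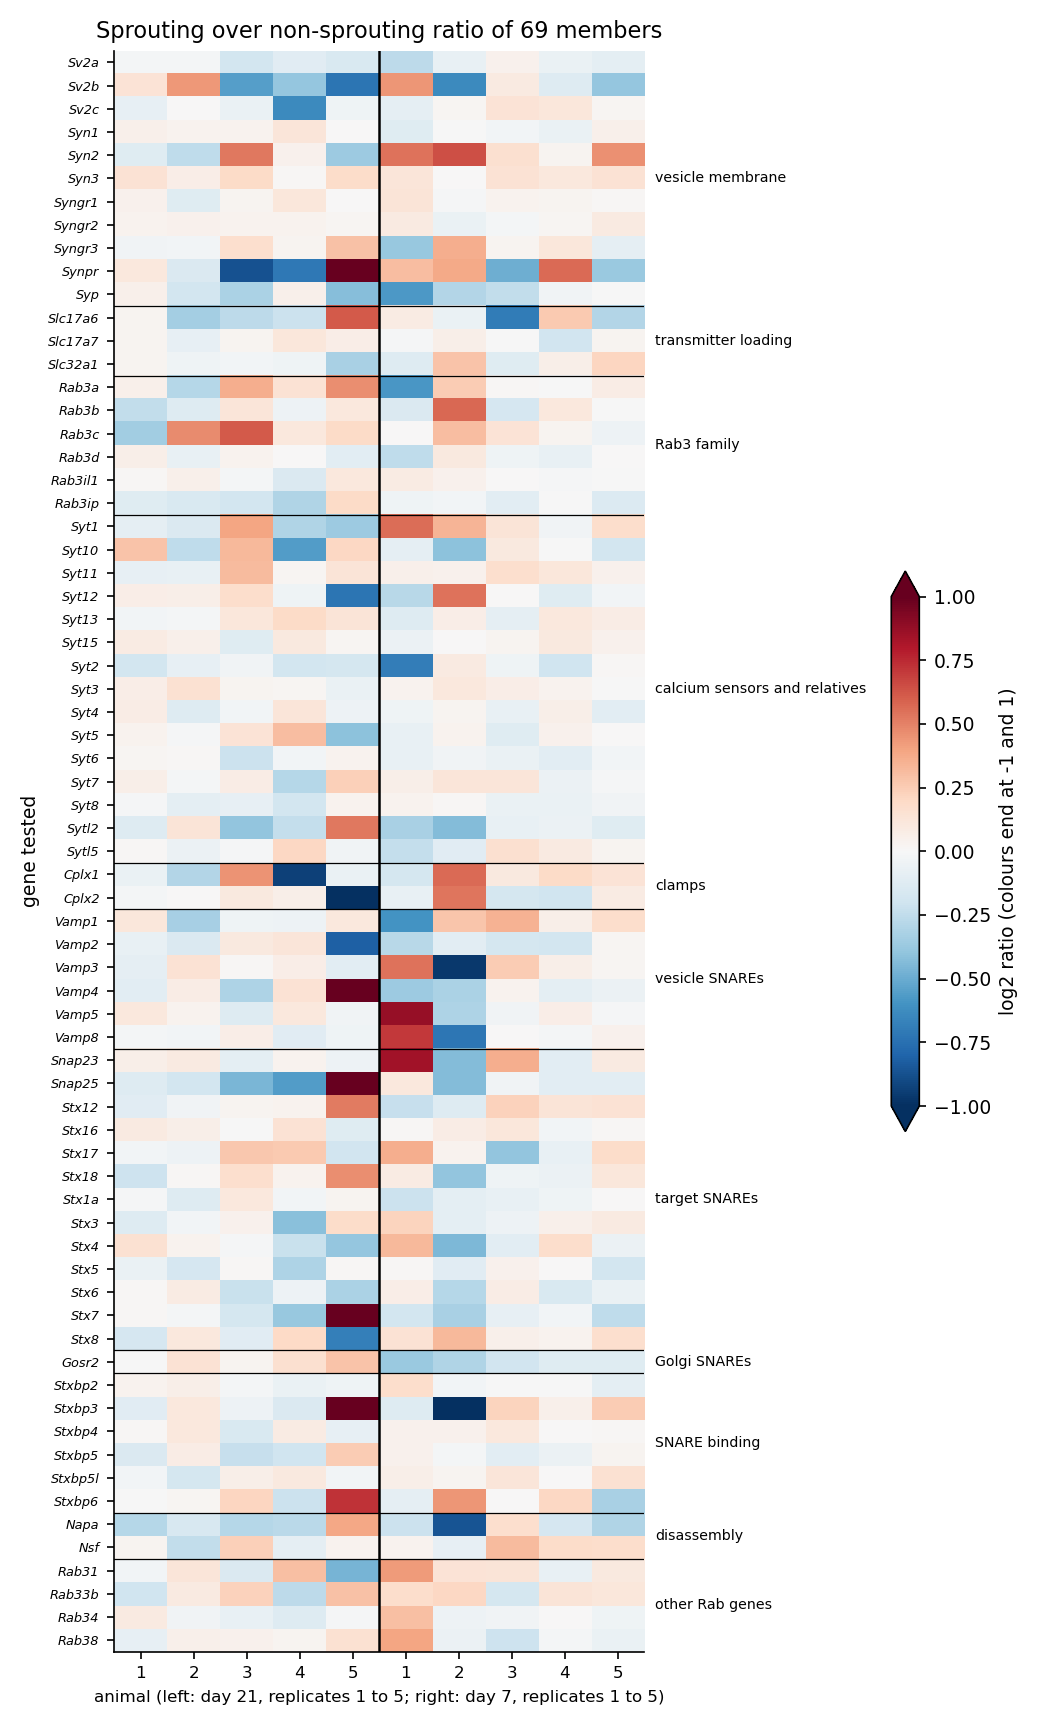
Log2 ratio of sprouting over non-sprouting neurons for 69 of the 71 members tested (rows, by role group) in every animal (columns; day 21 at the left of the line, day 7 at the right). Red is higher and blue lower in sprouting neurons, with colours ending at -1 and 1; the strongest colours lie in day 21 animal 5 and in day 7 animals 1 and 2.

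Gosr2, a SNARE of the Golgi that acts in transport of cargo from the endoplasmic reticulum and through the Golgi stack, was the member whose days did not overlap. Its log2 ratios were -0.00045, 0.14, 0.031, 0.16 and 0.29 in the day 21 animals, against -0.37, -0.30, -0.19, -0.12 and -0.12 in the day 7 animals. In 4 of 5 day 21 animals it was above 0 and in the other at 0, while every day 7 animal was below 0. The mean was 0.12 ± 0.11 (SD, n = 5) at day 21 and -0.22 ± 0.11 (SD, n = 5) at day 7. Against 0, limma p was 0.036 at day 21 and 0.0015 at day 7, with adjusted p = 0.917 and 0.567. The difference of 0.35 (SE 0.073) had limma p = 0.00073 and adjusted p = 0.919. The exact permutation test of day labels had p = 0.00794, the smallest that this number of animals allows, and not adjusted for the number of genes. Gosr2 was named because its days did not overlap, and that alone fixes this p at its minimum. The permutation test therefore adds no support of its own.

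Both dye orientations of Gosr2 ran the same way. Single arrays were above 0 on 9 of 10 at day 21 and on 0 of 10 at day 7. A further Gosr2 probe gave 0.085 ± 0.059 at day 21 and -0.15 ± 0.11 at day 7 (SD, n = 5 each), a difference of 0.24 with an exact permutation p = 0.00794. That probe read the same RNA on the same arrays, and it is given because the first was picked. Its p is therefore no separate support. The sprouting level of Gosr2 was 9.85 ± 0.36 at day 21 and 9.65 ± 0.13 at day 7, and its non-sprouting level was 9.73 ± 0.45 at day 21 and 9.87 ± 0.10 at day 7 (log2 intensity, SD, n = 5 each). Neither level on its own separated the days (limma p = 0.26 for sprouting and 0.47 for non-sprouting neurons). In the third scan batch, which holds both days, the ratio was -0.00045 in 1 day 21 animal and -0.12 on average in 2 day 7 animals. With scan batch as a fixed block the difference was 0.12 (limma p = 0.32), and the day cannot otherwise be told apart from the scan batch. With each array centred on its median in place of loess, the mean was -0.10 at day 21 and -0.39 at day 7, so the direction at day 21 turned while the order of the days did not.

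The 250 bases before the start of Gosr2 in RefSeq assembly GRCr8 (chr10:89105633-89105882, minus strand) are shown 5′ to 3′ with a GC box in capitals, beside those of Syn2 and Syp, which had the highest and the lowest day 7 mean among the vesicle membrane genes. A GC box here is the run GGGCGG on either strand, and it lay in this window in 39 of 63 members with a promoter entry (61.9%), against 30.5% of all 33469 RefSeq promoters of that length. Syn2 lies at chr4:149858669-149858918 (plus strand) and Syp at chrX:17536450-17536699 (minus strand).
Gosr2: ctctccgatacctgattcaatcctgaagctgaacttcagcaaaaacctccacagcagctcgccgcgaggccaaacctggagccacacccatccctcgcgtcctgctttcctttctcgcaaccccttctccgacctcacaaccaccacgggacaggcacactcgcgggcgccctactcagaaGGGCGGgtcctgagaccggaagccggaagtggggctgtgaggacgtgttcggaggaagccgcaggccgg
Syn2: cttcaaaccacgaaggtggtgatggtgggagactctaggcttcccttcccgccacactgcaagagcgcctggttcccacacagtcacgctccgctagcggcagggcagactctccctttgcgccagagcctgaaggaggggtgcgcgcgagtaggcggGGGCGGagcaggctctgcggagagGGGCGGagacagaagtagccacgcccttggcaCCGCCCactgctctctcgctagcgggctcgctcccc
Syp: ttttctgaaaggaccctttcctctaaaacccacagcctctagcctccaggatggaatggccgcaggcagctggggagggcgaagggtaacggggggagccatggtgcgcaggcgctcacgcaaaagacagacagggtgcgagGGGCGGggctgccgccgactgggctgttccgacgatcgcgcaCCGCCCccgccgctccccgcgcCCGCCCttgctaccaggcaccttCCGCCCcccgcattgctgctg
Gosr2 held 1 such run, Syn2 held 3 and Syp held 4. The palindromic cAMP response element TGACGTCA lay in 3 of 63 member windows (Napa, Syn1 and Vamp1; 4.76%, against 1.59% of all promoters), and TATAAA, searched on both strands, in 2 (Stxbp3 and Stxbp5l; 3.17%, against 12.9%). These are matches of letters within the window and say nothing of binding. The background was every RefSeq promoter entry, not the genes tested on the array, so the shares compare unlike sets.

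Synapsins coat the vesicle surface and hold a reserve of vesicles near the release site. The Syn2 log2 ratios were -0.12, -0.25, 0.53, 0.044 and -0.37 in the day 21 animals, against 0.54, 0.65, 0.16, 0.027 and 0.46 in the day 7 animals. The day 21 animals lay on both sides of 0 and overlapped with the day 7 animals, all 5 of which were above 0. The Syn2 mean was -0.034 ± 0.35 (SD, n = 5) at day 21 and 0.37 ± 0.26 (SD, n = 5) at day 7. The day 7 mean had limma p = 0.014 and adjusted p = 0.774. The difference of -0.40 (SE 0.18) had limma p = 0.045 and adjusted p = 0.919.

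Syn3 was the member above 0 in all 10 animals. Its log2 ratios were 0.14, 0.066, 0.19, 0.0099 and 0.18 in the day 21 animals, against 0.12, 0.0038, 0.15, 0.11 and 0.15 in the day 7 animals. The values of the days overlapped almost entirely, at 0.12 ± 0.079 (SD, n = 5) for day 21 and 0.11 ± 0.059 (SD, n = 5) for day 7. The mean of both days was 0.11 (SE 0.027, limma p = 0.0017, adjusted p = 0.637), with an exact sign-flip permutation p = 0.00195, the smallest possible. Syn3 was named for its single sign in all 10 animals, which alone fixes that permutation p at its minimum. The sign-flip test therefore adds no support of its own. The dye orientations of Syn3 opposed each other: forward arrays averaged -0.14 ± 0.27 and dye-swap arrays 0.38 ± 0.17 at day 21, and forward arrays -0.019 ± 0.10 and dye-swap arrays 0.23 ± 0.096 at day 7 (SD, n = 5 each). The average was above 0 at both days on the dye-swap arrays and below 0 at both days on the forward arrays. The Syn3 signal was weak. Of 10 arrays a day, it was well above background on 5 sprouting and 4 non-sprouting at day 21. At day 7 it was so on 8 sprouting and 7 non-sprouting arrays.

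Syn1 kept small ratios, with 0.051, 0.037, 0.033, 0.12 and 0.0025 in the day 21 animals, against -0.12, -0.0016, -0.031, -0.069 and 0.049 in the day 7 animals. The day 21 animals were all above 0 and 4 of 5 day 7 animals were below, with 1 day 7 value inside the day 21 range. The difference was 0.083 (SE 0.048, limma p = 0.11, adjusted p = 0.919).

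**Figure D3:**
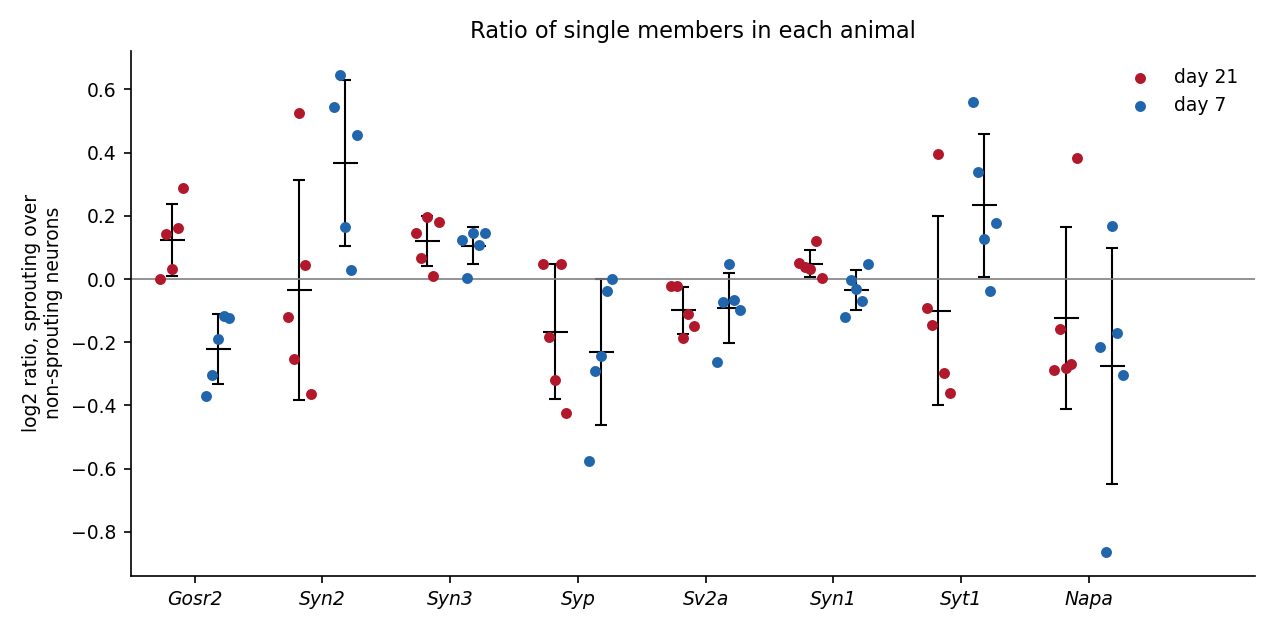
Log2 ratio of sprouting over non-sprouting neurons in each animal (points) for 8 members, with the mean (bar) and SD (whiskers) of 5 animals per day; day 21 is red and day 7 blue. The days of Gosr2 do not overlap, Syn3 lies above 0 in all 10 animals, and the other members overlap between days.

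The integral membrane proteins of the vesicle gave low ratios in Syp and Sv2a. Syp, the synaptophysin of small clear vesicles, had log2 ratios of 0.049, -0.18, -0.32, 0.048 and -0.42 in the day 21 animals, against -0.58, -0.29, -0.25, -0.038 and -0.00011 in the day 7 animals. Most animals were below 0, 3 of 5 at day 21 and 5 of 5 at day 7, and the days overlapped. The mean of both days was -0.20 (SE 0.065, limma p = 0.011, adjusted p = 0.724, exact sign-flip permutation p = 0.0254). Syp was also picked for its single sign at day 7, and those values enter this mean. The permutation test therefore adds no support of its own.

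Sv2a, a vesicle glycoprotein and the target of levetiracetam, had -0.023, -0.023, -0.19, -0.11 and -0.15 in the day 21 animals, against -0.26, -0.072, 0.047, -0.068 and -0.10 in the day 7 animals. It was below 0 in all animals but 1 of day 7, at 9 of 10. The mean of both days was -0.095 (SE 0.032, limma p = 0.014, exact sign-flip permutation p = 0.00977). Sv2a was also picked for its single sign at day 21, and those values enter this mean. Neither p allows for that choice or for the number of genes, so they add no support of their own. Sv2b varied far more, with 0.14, 0.44, -0.55, -0.39 and -0.73 in the day 21 animals, against 0.44, -0.63, 0.088, -0.13 and -0.39 in the day 7 animals. Its animals lay on both sides of 0 at both days, and it was saturated on 1 array. Sv2c averaged -0.17 ± 0.26 at day 21 and 0.039 ± 0.088 at day 7 (SD, n = 5 each), where day 21 animal 4 gave -0.64 from arrays at 0.034 (forward) and -1.30 (dye swap). The synaptogyrins Syngr1, Syngr2 and Syngr3, relatives of synaptophysin, had means between 0.013 and 0.086 at day 21 and between 0.0047 and 0.037 at day 7.

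Of the transporters that load glutamate or GABA into vesicles, none had p under 0.05 in any ratio contrast. Slc17a7, which loads glutamate in most cortical excitatory neurons, averaged 0.031 ± 0.073 at day 21 and -0.026 ± 0.10 at day 7. Slc17a6, its relative of thalamus and brainstem, averaged -0.036 ± 0.39 at day 21 and -0.14 ± 0.37 at day 7. Slc32a1, which loads GABA and glycine and marks inhibitory neurons, averaged -0.082 ± 0.14 at day 21 and 0.061 ± 0.19 at day 7 (SD, n = 5 each). The Slc17a6 animals spread widely, at -0.34 to 0.61 at day 21 and -0.70 to 0.26 at day 7. The Slc17a7 probe was dim, with a mean log2 signal of 6.73, against 11.57 for Slc32a1. At day 21 it was well above background on only 4 sprouting arrays and on 9 non-sprouting arrays. At day 7 it was so on 9 arrays of each cell type. Its ratio near 0 is therefore weak evidence on a difference.

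The Rab3 proteins are small GTPases of the vesicle that take part in docking. Rab3a had 0.053, -0.28, 0.36, 0.14 and 0.47 in the day 21 animals, against -0.58, 0.25, 0.012, -0.0073 and 0.073 in the day 7 animals. Both days lay on both sides of 0. Rab3b, Rab3c and Rab3d had means of -0.038, 0.21 and -0.016 at day 21 and of 0.073, 0.086 and -0.054 at day 7, and 0 of the 6 members of this group had p under 0.05 at either day.

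Synaptotagmins are vesicle proteins, many of which bind calcium and trigger fusion. Syt1, the main calcium sensor of fast release in forebrain, had log2 ratios of -0.091, -0.14, 0.40, -0.30 and -0.36 in the day 21 animals, against 0.56, 0.34, 0.13, -0.037 and 0.18 in the day 7 animals. In 4 of 5 day 21 animals it was below 0 and in 4 of 5 day 7 animals above, with overlap between them. The difference was -0.33 (SE 0.15, limma p = 0.053, adjusted p = 0.919).

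Syt2, a fast sensor of hindbrain and some interneurons, was below 0 in all 5 day 21 animals (-0.13 ± 0.068, SD), with -0.17 ± 0.31 at day 7, where 1 animal gave -0.69. Syt6 averaged -0.034 ± 0.10 at day 21 and -0.061 ± 0.030 at day 7, below 0 in all 5 animals of day 7. Syt11, which does not act as a calcium sensor, averaged 0.063 ± 0.17 at day 21 and 0.084 ± 0.055 at day 7, above 0 in all 5 animals of day 7. Syt4, an activity-linked synaptotagmin, averaged -0.0022 ± 0.10 at day 21 and -0.026 ± 0.070 at day 7, and Syt7, a sensor of slow and asynchronous release, averaged 0.013 ± 0.19 at day 21 and 0.046 ± 0.080 at day 7. Across the 15 synaptotagmins and related Sytl genes tested, 8 means were above 0 at day 21 and 7 at day 7, and 0 had p under 0.05 at either day.

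The complexins Cplx1 and Cplx2 bind assembled SNARE complexes and clamp or promote fusion. Cplx2 had -0.022, 0.0068, 0.10, 0.062 and -1.10 in the day 21 animals, against -0.070, 0.53, -0.17, -0.20 and 0.083 in the day 7 animals. A single day 21 animal, animal 5, stood more than 1 log2 unit below the others of day 21. Cplx1 averaged -0.18 ± 0.50 at day 21 and 0.16 ± 0.27 at day 7 (SD, n = 5 each), and its lowest value, -0.94 in day 21 animal 4, came from arrays at -0.064 (forward) and -1.81 (dye swap).

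Among the vesicle SNAREs, Vamp2, the main one of synaptic vesicles, had log2 ratios of -0.073, -0.14, 0.095, 0.12 and -0.82 in the day 21 animals, against -0.28, -0.10, -0.18, -0.19 and 0.022 in the day 7 animals. Day 21 animal 5 was lowest of all, and 4 of 5 day 7 animals were below 0. Its other probes gave -0.15 and 0.027 at day 21 and -0.23 and -0.060 at day 7. Vamp1, the relative found at many brainstem synapses, averaged -0.042 ± 0.18 at day 21 and 0.052 ± 0.38 at day 7. Vamp3, Vamp5 and Vamp8 serve recycling, muscle and late endosomal compartments, and their ratios spread little at day 21 (SD 0.10, 0.10 and 0.064) but widely at day 7 (SD 0.57, 0.45 and 0.51).

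That spread at day 7 came from 2 animals. Day 7 animal 1 had Vamp5 at 0.87, Snap23 at 0.84, Vamp8 at 0.71 and Vamp3 at 0.55. Its blood markers had a median log2 ratio of 1.11, with 5 of 6 above 0, and its endothelial markers a median of 0.29, with 4 of 5 above 0. In that animal 2 of 7 oligodendrocyte markers (median -0.029), 2 of 7 GABA neuron markers (median -0.13) and 5 of 8 pan-neuronal markers (median 0.065) were above 0. Day 7 animal 2 had Stxbp3 at -1.19, Vamp3 at -0.97, Napa at -0.86, Vamp8 at -0.73 and Snap23 at -0.43. There 0 of 7 oligodendrocyte markers were above 0 (median -0.74), all 7 GABA neuron markers were above 0 (median 0.28), and 6 of 8 pan-neuronal markers were above 0 (median 0.35). Blood markers were above 0 in 4 of 6 (median 0.068) and endothelial markers in 4 of 5 (median 0.020). Microglia and macrophage markers had a median of 0.064 in day 7 animal 1, with 6 of 10 above 0, and of -0.20 in day 7 animal 2, with 2 of 10 above 0. The markers' part in these ratios was not tested. The log2 of the summed oligodendrocyte marker levels spanned 15.07 to 15.88 in sprouting and 14.51 to 15.76 in non-sprouting neurons at day 21, and 14.74 to 15.78 in sprouting and 15.09 to 15.46 in non-sprouting neurons at day 7. For blood markers it spanned 13.25 to 15.44 in sprouting and 12.95 to 15.42 in non-sprouting neurons at day 21, and 15.30 to 15.99 in sprouting and 13.82 to 15.53 in non-sprouting neurons at day 7. For endothelial markers it spanned 9.50 to 10.25 in sprouting and 9.65 to 10.36 in non-sprouting neurons at day 21, and 9.85 to 10.29 in sprouting and 9.87 to 10.05 in non-sprouting neurons at day 7. For microglia and macrophage markers it spanned 12.40 to 12.85 in sprouting and 12.48 to 12.94 in non-sprouting neurons at day 21, and 12.98 to 15.32 in sprouting and 12.71 to 14.57 in non-sprouting neurons at day 7.

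The target SNAREs of the plasma membrane partner Vamp2 at the synapse. Snap25, the neuronal one of the Snap family, had -0.13, -0.18, -0.45, -0.56 and 1.94 in the day 21 animals, against 0.11, -0.43, -0.036, -0.11 and -0.10 in the day 7 animals. It was below 0 in 8 of 10 animals and far above in day 21 animal 5, where both arrays showed it (1.98 forward and 1.91 dye swap). The 0.11 of day 7 animal 1 came from opposed arrays, at -0.54 (forward) and 0.75 (dye swap). Snap25 was saturated on 3 arrays, which limits how large a ratio can be read. Stx1a averaged -0.0054 ± 0.085 at day 21 and -0.084 ± 0.082 at day 7, and Stx4, a target SNARE of non-neuronal plasma membranes, averaged -0.085 ± 0.22 at day 21 and -0.022 ± 0.29 at day 7. Stx7, a late endosomal SNARE, averaged 0.12 ± 0.60 at day 21, where animal 5 gave 1.15, and -0.18 ± 0.12 at day 7, where all 5 animals were below 0. Stx8, its endosomal partner, averaged -0.13 ± 0.34 at day 21 and 0.14 ± 0.11 at day 7, above 0 in all 5 animals of day 7. Stx6, a SNARE of the trans-Golgi network, averaged -0.099 ± 0.17 at day 21 and -0.071 ± 0.15 at day 7.

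Of the 7 SNARE-binding members tested, 3 had a mean above 0 at day 21 and 5 at day 7, and 0 had p under 0.05 at either day. Napa, which recruits Nsf to spent SNARE complexes, had -0.29, -0.16, -0.28, -0.27 and 0.38 in the day 21 animals, against -0.21, -0.86, 0.17, -0.17 and -0.30 in the day 7 animals. It was below 0 in 8 of 10 animals, with 1 exception at each day, and its mean of both days was -0.20 (SE 0.095, limma p = 0.061). Nsf, the ATPase itself, averaged -0.0058 ± 0.18 at day 21 and 0.12 ± 0.15 at day 7.

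Day 21 animal 5 set the extremes of several groups. Synpr, a synaptophysin relative, had log2 ratios of 0.10, -0.15, -0.87, -0.71 and 3.02 in the day 21 animals, against 0.31, 0.38, -0.49, 0.57 and -0.37 in the day 7 animals. The value of 3.02 stood on both arrays (2.94 forward and 3.1 dye swap), and the other animals lay on both sides of 0. In the same animal Stxbp3 was at 1.55, Stx7 at 1.15 and Vamp4 at 1.05, while Cplx2 was at -1.10 and Vamp2 at -0.82. Its pan-neuronal markers had a median of -0.51 with 1 of 8 above 0, although Snap25 is one of them, and its astrocyte markers had a median of 0.22 with 5 of 7 above 0. Oligodendrocyte markers there had a median of 0.11 with 5 of 7 above 0, and GABA neuron markers -0.25 with 3 of 7. Blood markers had a median of 0.047 with 4 of 6 above 0, and endothelial markers 0.0070 with 3 of 5. Over all animals of a day, 7 of 7 astrocyte markers had a mean ratio above 0 at day 21 (median 0.11) and 2 of 7 at day 7 (median -0.035). The log2 of the summed pan-neuronal levels spanned 15.41 to 15.66 in sprouting and 15.38 to 15.98 in non-sprouting neurons at day 21, and 15.58 to 15.83 in sprouting and 15.63 to 15.93 in non-sprouting neurons at day 7. For astrocyte markers it spanned 14.17 to 14.33 in sprouting and 13.91 to 14.26 in non-sprouting neurons at day 21, and 14.23 to 14.60 in sprouting and 14.29 to 14.42 in non-sprouting neurons at day 7. The part of these markers in that animal's ratios was not tested.

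**Figure D4:**
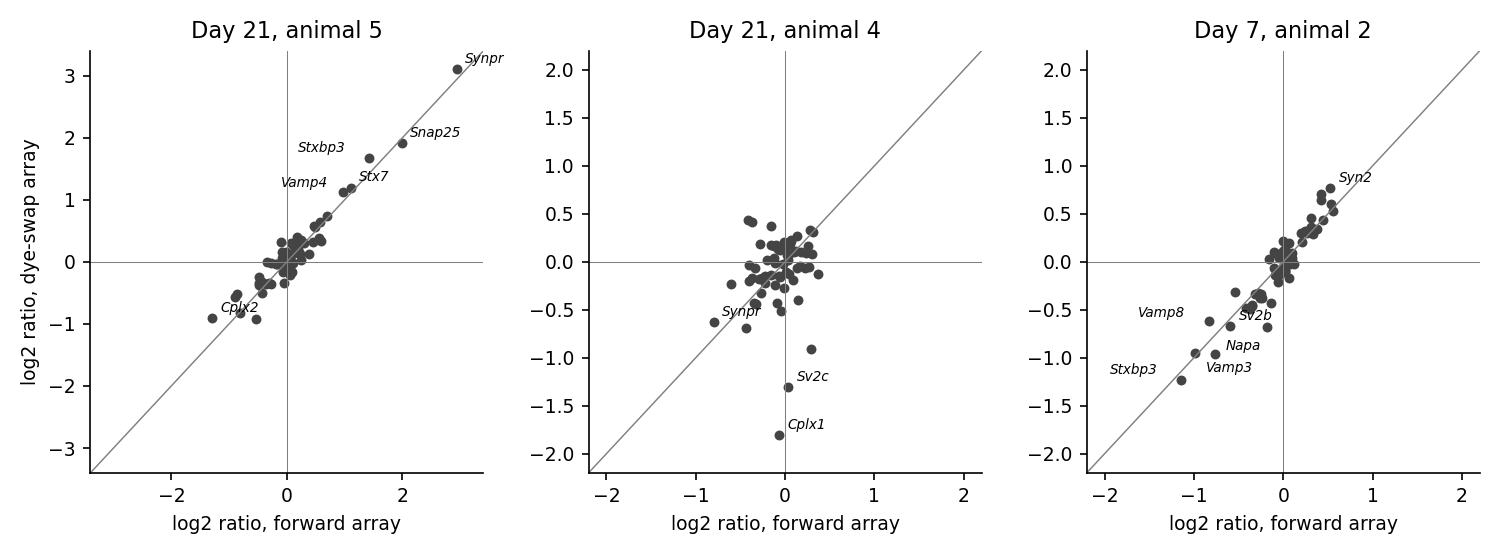
Log2 ratio of each member on the dye-swap array (turned to the same direction) against the forward array, for day 21 animal 5, day 21 animal 4 and day 7 animal 2; each point is a gene and the diagonal marks equal values. The points of day 21 animal 5 and day 7 animal 2 follow the diagonal, while in day 21 animal 4 Cplx1 and Sv2c are low on the dye-swap array alone; the first panel has a wider scale.

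Levels within a cell type were compared between the cohorts, after scaling of both channels across arrays. Both cell types of an animal were read on the same arrays and share the mean brightness of each spot. A change seen in both is therefore not a second, independent reading of the days. In sprouting neurons 9 of 71 members (12.7%) had p under 0.05, 5 higher and 4 lower at day 21, against 15.1% of all genes, and 0 members and 0% of all genes passed after adjustment. In non-sprouting neurons 6 members (8.45%) did, 5 higher and 1 lower at day 21, against 15.8% of all genes, and again 0 members and 0% of all genes passed. Both shares were below the background. How many of all genes had levels without overlap between the days was not counted, so such patterns below have no background beside them. The median change of the members was -0.043 in sprouting and -0.064 in non-sprouting neurons, against -0.060 over all genes in each.

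Sv2b differed most in level. In sprouting neurons its log2 intensity was 14.16, 15.58, 13.93, 15.20 and 14.89 in the day 21 animals, against 14.15, 12.21, 13.87, 14.18 and 13.97 in the day 7 animals. In non-sprouting neurons it was 14.02, 15.14, 14.49, 15.58 and 15.61 in the day 21 animals, against 13.71, 12.85, 13.78, 14.30 and 14.35 in the day 7 animals. The days overlapped in both cell types, and the animals with a high value in one cell type mostly had it in the other. That likeness is partly built in by the shared arrays. Day 21 was 1.07 higher in sprouting neurons (limma p = 0.027, adjusted p = 0.278) and 1.17 higher in non-sprouting neurons (limma p = 0.0092, adjusted p = 0.187). Without day 7 animal 2 the sprouting value was 0.71. With scan batch as a fixed block it was 0.088 in sprouting neurons and turned to -0.30 in non-sprouting neurons, and the 2 other Sv2b probes gave -0.12 and -0.24 in sprouting and -0.059 and -0.15 in non-sprouting neurons.

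Stx12, an endosomal syntaxin, was 13.18 ± 0.15 at day 21 and 12.78 ± 0.16 at day 7 in sprouting neurons, a difference of 0.40 (limma p = 0.0058, adjusted p = 0.201) with no overlap of the animals. In non-sprouting neurons it was 13.09 ± 0.34 at day 21 and 12.75 ± 0.056 at day 7 (SD, n = 5 each). The non-sprouting difference of 0.34 had limma p = 0.0497, and the days overlapped. Its other probes gave 0.13 and -0.045 in sprouting neurons. Stx4 in sprouting neurons had levels of 9.74, 9.86, 9.69, 9.20 and 9.37 in the day 21 animals, against 10.10, 9.91, 10.16, 9.94 and 9.91 in the day 7 animals. All day 21 values lay under all day 7 values there, with a difference of -0.43 (limma p = 0.011, adjusted p = 0.230). In non-sprouting neurons the difference was -0.37 (limma p = 0.027, adjusted p = 0.260), with overlap of the days. With scan batch as a fixed block the Stx4 differences were -0.18 in sprouting and -0.28 in non-sprouting neurons, and without the 2 animals of scan batch 5 the sprouting one was -0.24. Levels of microglia and macrophage markers had a median difference, day 21 minus day 7, of -0.72 in sprouting neurons (5 of 10 with p under 0.05, all lower) and -0.45 in non-sprouting neurons (2 of 10, both lower). Astrocyte markers had medians of -0.17 in sprouting neurons (1 of 7 with p under 0.05, lower) and -0.35 in non-sprouting neurons (5 of 7, all lower). Their part in the Stx4 levels was not tested.

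Stxbp5l, a tomosyn-type protein that holds target SNAREs away from fusion, had no overlap between days in either cell type. Of 10 arrays a day, its probe was well above background on 6 sprouting and 9 non-sprouting at day 21. At day 7 Stxbp5l was so on 8 sprouting and 7 non-sprouting arrays. Its day 21 mean was 7.38 ± 0.88 in sprouting and 7.40 ± 0.86 in non-sprouting neurons, against 6.61 ± 0.084 in sprouting and 6.54 ± 0.076 in non-sprouting neurons at day 7 (SD, n = 5 each). The 2 animals of scan batch 5 were high in both cell types, and without them the difference was 0.16 in sprouting and 0.28 in non-sprouting neurons, in place of 0.77 and 0.86. With scan batch as a fixed block it was 0.10 in sprouting and 0.21 in non-sprouting neurons, and a further Stxbp5l probe gave 0.19 in each cell type. Syn3 was 0.29 higher at day 21 in sprouting neurons and 0.27 higher in non-sprouting neurons (limma p = 0.020 and 0.021). Within the third scan batch the Syn3 differences were 0.10 in sprouting and 0.084 in non-sprouting neurons. At day 21 its probe was well above background on only 5 sprouting and 4 non-sprouting arrays. The sets of animals differ in scan batch, so cohort and batch can be compared only within the third batch.

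**Figure D5:**
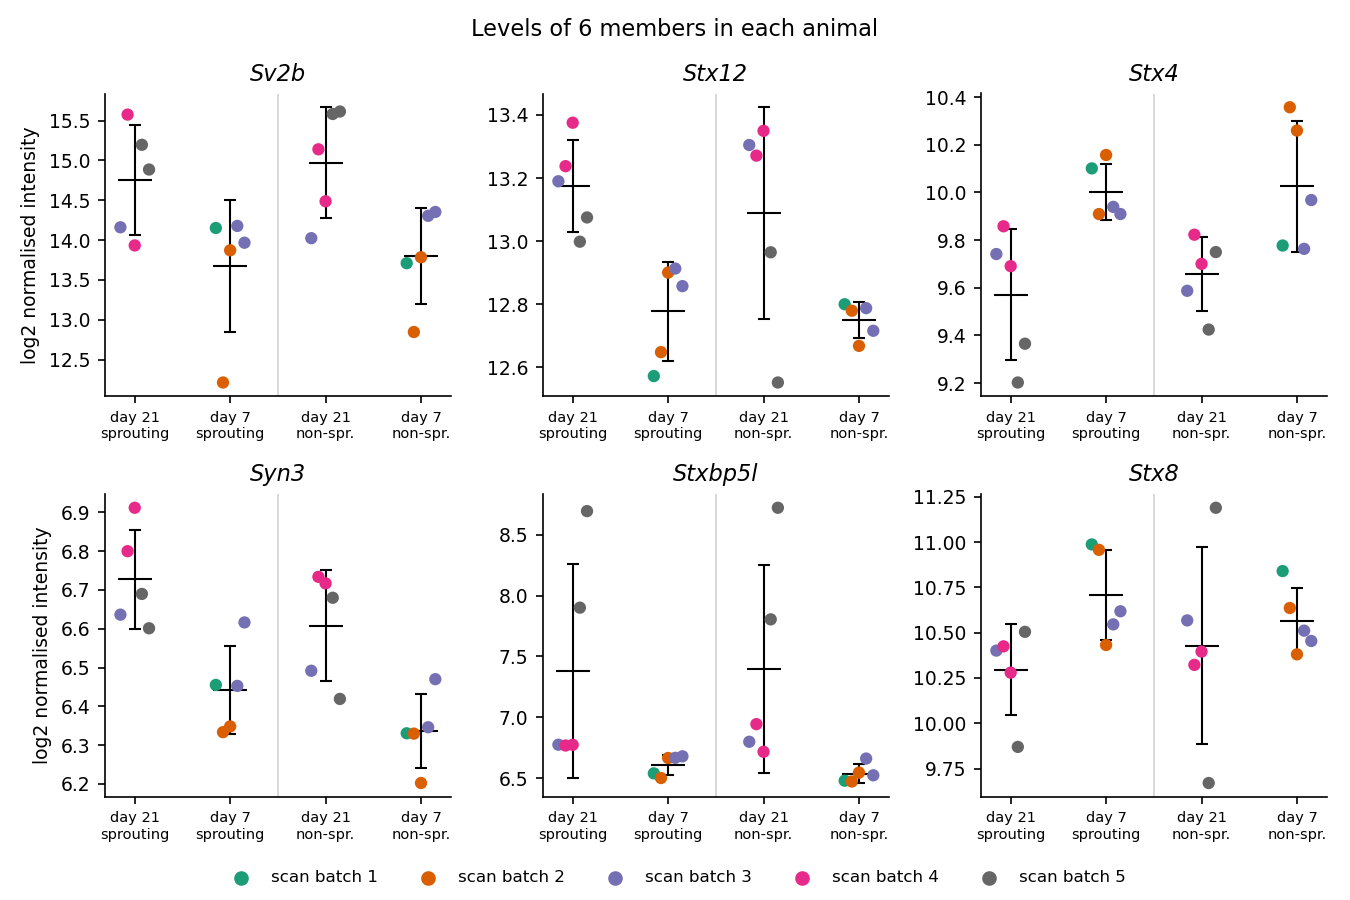
Log2 normalised intensity of 6 members in each animal, by day and cell type, with the mean (bar) and SD (whiskers) of 5 animals; colours are scan batches. For Stxbp5l the 2 animals of scan batch 5 stand above the others in both cell types, and for Stx12 and Stx4 the sprouting values of the days do not overlap; each panel has its own scale.

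The other genes of release and recycling, a list of 107 that holds active zone, clathrin and transport proteins, gave 96 genes tested, with 0 adjusted p under 0.05 (limma) at either day. Before adjustment 0 were higher and 3 lower at day 21, and 6 were higher and 3 lower at day 7. These were 3.13% of the list at day 21, against 4.79% of all genes, and 9.38% at day 7, against 6.11% of all genes. The list had median log2 ratios of -0.014 at day 21 and 3.3e-05 at day 7. The genes given next were picked from this list for the smallest p at each day. Pclo, an active zone scaffold, was -0.47 ± 0.31 at day 21, below 0 in all 5 animals, against 0.26 ± 0.24 at day 7, above 0 in all 5. Of all genes, 6.29% kept a single sign at day 21 and 11.1% at day 7, and 0.955% had no overlap between the days. Cltb, a clathrin light chain of the coat that retrieves vesicle membrane, was below 0 in all 10 animals, at -0.093 ± 0.058 at day 21 and -0.16 ± 0.065 at day 7. Slc18a2, the loader of monoamines, was above 0 in all 10 animals, at 0.078 ± 0.087 at day 21 and 0.28 ± 0.14 at day 7 (SD, n = 5 each; limma adjusted p = 0.917 and 0.408). A single sign in all 10 animals was seen in 0.486% of all genes. Cltc, the clathrin heavy chain, was 0.088 ± 0.19 at day 21 and 0.26 ± 0.15 at day 7, and Ap3d1, an endosomal adaptor subunit, was -0.30 ± 0.42 at day 21 and 0.27 ± 0.18 at day 7.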

How the data were processed

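RNA of sprouting and non-sprouting neurons from 10 animals was read on 20 arrays. The deposited scanner files hold red and green spot intensity with flags from Agilent Feature Extraction 9.1.3.1, per the file headers, and a log10 ratio that was used as an alternative. The authors' deposited table of log2 ratios was also an alternative: its columns correlated at 0.892 to 1.00 with their own arrays and had medians of 0.0027 to 0.015. Its centring is unknown, and 20 further columns of it were not used. In R 4.3.3 with limma 3.58.1, intensities were background-corrected (normexp, offset 50) and normalised by loess within arrays. Control spots (2256 of 43628) had no weight, outlier spots were left out and saturated spots were kept. Ratios were turned to sprouting over non-sprouting, and both arrays of an animal were averaged to 1 replicate. Genes entered the test from their brightest probe if well above background on both arrays of 3 or more animals of a day in 1 cell type (34225 of 41012 probes passed). Tests were lmFit and eBayes over both days with Benjamini-Hochberg adjustment, and levels were scaled by Aquantile. Members were named by accession (65) or by symbol and synonym (13). Named genes are a core panel of 40, the smallest p-values per contrast and the most extreme ratios. The members and lists were chosen with earlier results of these data known. The days are separate cohorts: same-numbered animals correlated at -0.18 to 0.035, so the numbers do not pair them. Single values of some members are not reported here. The script was tested on simulated data. The alternatives changed the background correction, normalisation, filter, probe rule, dye orientation, scan batch and animals.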

Additional observations from a re-analysis of the deposited data

Results flagged for a closer look

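By Dixon's 95% limit, chance sets an animal apart in about 1 in 20 independent groups. The groups here share the same animals, and some genes were named for extreme ratios, so their count cannot be set against that rate. In 11 of 96 groups of 5 animals checked among the named genes, the highest or lowest animal stood apart by this limit.

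Day 21 animal 5 accounted for 7 of them, all log2 ratios: Synpr at 3.02 (the others lay between -0.87 and 0.10), Snap25 at 1.94 (between -0.56 and -0.13), Stx7 at 1.15 (between -0.38 and 0.012) and Napa at 0.38 (between -0.29 and -0.16) were high. Cplx2 at -1.10 (between -0.022 and 0.10) and Vamp2 at -0.82 (between -0.14 and 0.12) were low. Slc32a1 was the last of the 7, low at -0.32 (between -0.042 and 0.024).

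Day 21 animal 4 stood apart in the log2 ratio of Sv2c, at -0.64 (the others lay between -0.085 and 0.0034). At day 7, Syn3 was low in animal 2, at 0.0038 (between 0.11 and 0.15), and Slc17a7 was low in animal 4, at -0.19 (between -0.010 and 0.058). The log2 level of Sv2b in sprouting neurons was 12.2 in day 7 animal 2, while the other day 7 animals lay between 13.87 and 14.18.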

How the results depend on the processing

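Under every alternative run, 0 members passed an adjusted p under 0.05 in each contrast, with 1 exception: on the dye-swap arrays alone the mean of both days called 1 member, Syn3, at 0.30 (limma adjusted p = 0.0286), among 78 of 30484 genes called there. Members with an unadjusted p under 0.05 numbered 1 to 14 at day 21, 0 to 16 at day 7, 0 to 4 for the difference, 3 to 24 for the mean of both days, and 0 to 12 for the levels in each cell type. The most were under median centring, at 19.7% of members at day 21 (9.52% of all genes), 22.5% at day 7 (10.4% of all genes) and 33.8% for the mean of both days (20.5% of all genes). For the difference 3 alternatives gave the most, among them leaving out day 21 animal 3, at 5.63% (4.86% of all genes). For the levels the most were 16.9% in each cell type, in sprouting neurons without day 21 animal 1 (20% of all genes) and in non-sprouting neurons without the animals of scan batch 5 (20.2%). The fewest were 1.67% at day 21 under the stricter filter (4.68% of all genes) and 0% for the difference under median centring (1.60%). Without the day 7 animals of scan batches 1 and 2 the fewest were 0% at day 7 (1.98% of all genes), 4.23% for the mean of both days (3.11%), 0% for sprouting levels (6.45%) and 0% for non-sprouting levels (6.79%). With the replicate block, 1 member had an unadjusted p under 0.05 for the difference and 0 had an adjusted one. The 2 alternatives that left out animals of named scan batches were chosen after seeing the data.

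The median log2 ratio of the members moved by more than its spread between replicates under the alternatives below. The ranges on leaving out 1 animal are given beside them in full, whether or not they moved by that much. At day 21 it was -0.081 with median centring (-0.028 over all genes), 0.019 with Feature Extraction ratios, -0.023 on forward arrays and 0.011 on dye-swap arrays, and leaving out 1 animal gave -0.012 to 0.015. At day 7 it was -0.077 with median centring (-0.030 over all genes), 0.021 with Feature Extraction ratios, 0.015 without background correction and -0.0092 without the animals of scan batches 1 and 2, and leaving out 1 animal gave -0.011 to 0.0078. The median of the difference was 0.012 with Feature Extraction ratios, 0.0097 on dye-swap arrays and 0.0075 with scan batch as a fixed block, and leaving out 1 animal gave -0.010 to 0.0031. The median of the mean of both days was -0.066 with median centring, -0.012 on forward arrays and -0.012 on dye-swap arrays, and leaving out 1 animal gave -0.0034 to 0.0072. The cause was not tested.

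Directions of named genes turned as follows, where the value also moved by more than its SD between animals. Turns within that SD also occurred and are not listed. Median centring gave Gosr2 -0.10, Syngr3 -0.14 and Vamp3 -0.22 at day 21; Rab3c -0.072, Slc17a7 0.079, Syngr1 -0.037 and Syt4 0.13 at day 7; and Syt4 -0.10 for the difference. Forward arrays alone gave Syn3 -0.14, Syngr1 -0.075 and Syt4 0.14 at day 21, Syn3 -0.019, Syt4 0.12 and Syt7 -0.066 at day 7, Syn3 -0.078 for the mean of both days and Syn3 -0.12 for the difference. Dye-swap arrays alone gave Syngr1 0.090 for the difference. Feature Extraction ratios gave Rab3d 0.054 at day 21 and Syn3 -0.12 for the difference. Scan batch as a fixed block gave Sv2b 0.39 and Rab3c -0.34 for the difference and Sv2b -0.30 for the non-sprouting level. Without the animals of scan batches 1 and 2, Syt7 was -0.036 at day 7. The cause was not tested. The dimmest sprouting channel, with 20.6% of probes above background, limits the ratios of day 21 animal 4.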
